A study of Mus musculus with 90 samples.

Results

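The genes described here are 10 genes that mark mural cells (the pericytes and smooth muscle cells wrapped around brain vessels) and fibroblasts of the vessel sheaths and meninges: Lum, Dcn, Col1a1, Col1a2, Col3a1, Serpinh1, Acta2, Tagln, Pdgfrb and Anpep. Every probe that the platform annotation gives to one of these symbols was taken, 14 of 25697 probes, with 4 for Acta2, 2 for Dcn and 1 for each other gene. After a filter on detection, 8 of the 10 were among the 9741 genes tested. RNA of the left hippocampus and of a piece of the left frontal cortex was hybridised to Illumina mouse bead arrays, 46 from frontal cortex and 44 from hippocampus, from 47 animals. All animals were APP/PS1 mice, which carry human transgenes of familial Alzheimer disease and deposit amyloid, and all had a cannula in the right lateral ventricle, so that no wild-type, untreated or sham group enters. The CD33 ASO groups received an antisense oligonucleotide against the transcript of Cd33, an inhibitory receptor on microglia and other myeloid cells; the CON ASO groups received a control oligonucleotide, each at 40 µg per day from an osmotic pump that started at 18 weeks of age.

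The infusion lasted 14 or 28 days, and all tissue was collected at 22 weeks of age, so the 14-day animals spent the end of the study with the pump taken out. In the frontal cortex the CD33 ASO and the control ASO had 9 animals each at 14 days and 14 animals each at 28 days. In the hippocampus they had 9 animals each at 14 days and 13 animals each at 28 days. The arrays of a group were from separate animals, and 43 animals gave both tissues. The arrays lay on 12 chips, each with 1 tissue and all 4 of its groups.

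Fibroblasts lay down the collagen and proteoglycan of the meninges and of the sheaths around larger brain vessels. Smooth muscle cells set the width of arteries through an actin and myosin apparatus, and pericytes cover capillaries and depend on platelet-derived growth factor from the endothelium. A piece of brain tissue holds few of these cells beside its neurons and glia. In bulk tissue, fewer cells of a type and less RNA per cell cannot be told apart.

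The promoter windows of Serpinh1 and Anpep are shown because these are the 2 members that passed the test in the hippocampus with both durations averaged. Serpinh1 encodes HSP47, the chaperone of procollagen in the endoplasmic reticulum, and Anpep encodes aminopeptidase N (CD13), a surface peptidase of pericytes and of some fibroblasts and myeloid cells. Each is the 250 bases before the RefSeq gene start in build GRCm38.p6, on the minus strand, written from 5′ to 3′ in the direction of the gene, with GGGCGG, the core of a GC box, in capitals.
Serpinh1, chr7:99353240-99353489: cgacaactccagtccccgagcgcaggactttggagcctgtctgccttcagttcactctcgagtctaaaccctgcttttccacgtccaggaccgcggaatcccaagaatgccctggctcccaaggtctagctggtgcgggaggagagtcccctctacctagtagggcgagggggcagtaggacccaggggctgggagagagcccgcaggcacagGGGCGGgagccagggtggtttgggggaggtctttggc
Anpep, chr7:79848211-79848460: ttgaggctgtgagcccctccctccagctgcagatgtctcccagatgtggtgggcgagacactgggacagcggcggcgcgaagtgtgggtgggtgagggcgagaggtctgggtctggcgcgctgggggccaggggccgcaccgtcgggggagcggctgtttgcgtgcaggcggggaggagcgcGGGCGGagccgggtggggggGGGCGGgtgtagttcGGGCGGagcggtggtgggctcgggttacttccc
The window of Serpinh1 had 63.6% G and C and 1 GGGCGG, and that of Anpep had 72.8% and 3, none of them overlapping. The median over all 32851 windows of that length was 52.4%, and 32.7% of them held GGGCGG on either strand. Neither window held CCAAT (in 33.8% of all windows), the TATA motif TATAAA (12.4%), the heat shock element part GAANNTTC (6.69%) or a CArG box (1.47%), each searched on both strands. A match describes letters and not a bound site.

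Between 42.79% and 51.57% of probes were detected on an array (detection p-value under 0.01), and arrays of a group correlated with each other at 0.9861 to 0.9946. Levels below are normalized log2 intensities, and a level is compared only with levels of the same probe. Cd33 itself was lower in the CD33 ASO group at 28 days. It was at 53.69% of the control ASO group in the frontal cortex and 36.39% in the hippocampus. At 14 days it was at 61.81% in the frontal cortex, which did not pass (limma adjusted p 0.327), and at 40.96% in the hippocampus (limma adjusted p 2.8e-05). Its most often detected probe was detected on 42 cortical and 25 hippocampal arrays, so hippocampal values lie partly near background. In the CD33 ASO 28-day group 1 animal lay in the control range of Cd33. Leaving that animal out kept each call made below between the ASO groups. Acta2, Pdgfrb and Dcn were detected on all 46 cortical and all 44 hippocampal arrays. Detection in bulk tissue does not show which cells a transcript came from, for these members or for the markers that follow. Among the other markers of these cells, cortical and hippocampal detection was on 46 and 44 arrays for Ogn and Slc6a13, 46 and 43 for Fmod, 46 and 41 for Myh11, 45 and 44 for Rgs5, 45 and 34 for Des, 44 and 32 for Abcc9 and 31 and 24 for Kcnj8. Pdgfra and Cspg4 were detected on all arrays, but oligodendrocyte precursors express both too. Lum was detected on 45 cortical and 44 hippocampal arrays, Anpep on 42 and 31, Serpinh1 on 37 and 42, and Col1a1 on 29 and 29.

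Col3a1, Tagln and Col1a2 were detected on the fewest arrays of the 10 members. Col3a1, a chain of type III collagen, was detected on 0 of 46 cortical and 0 of 44 hippocampal arrays, and Tagln, which encodes the actin-binding protein SM22 of smooth muscle, on 1 and 1. Both failed the filter and were not tested, and their levels (4.44 to 5.59 for Col3a1 and 4.76 to 5.96 for Tagln) are not well above background. Col1a2, the second chain of type I collagen, was detected on 13 cortical arrays and 1 hippocampal array.

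Lum, which encodes lumican, a small leucine-rich proteoglycan that binds collagen fibrils, was lower in the CD33 ASO group in the frontal cortex at 28 days. Its lowest, median and highest levels there were 5.83, 6.62 and 7.08 in the CD33 ASO group, against 6.57, 7.09 and 7.50 in the control ASO group. All 14 CD33 ASO animals lay below the control median and 6 lay below the lowest control animal, although the groups overlapped. The difference was -0.53 ± 0.12 on the log2 scale (SE, n = 14 each), 69.27% of the control level, with a limma adjusted p of 0.0134. Lum was the 1 member of 8 tested that passed in this comparison, where 0.472% of all genes passed (0.318% as lower) and the groups did not overlap for 0% of genes. At 14 days in the frontal cortex the levels were 6.20, 6.81 and 7.05 in the CD33 ASO group and 6.66, 6.95 and 7.30 in the control ASO group, a difference of -0.27 ± 0.15 (limma adjusted p 0.943, n = 9 each).

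With both durations averaged, Lum in the frontal cortex was at 75.88% of the control level (difference -0.40 ± 0.09, limma adjusted p 0.0234) and was again the 1 member to pass, beside 0.636% of all genes (0.4% as lower). In the hippocampus at 28 days the lowest, median and highest levels of Lum were 6.95, 7.61 and 8.40 in the CD33 ASO group and 7.48, 7.88 and 8.53 in the control ASO group. Of the 13 CD33 ASO animals, 6 lay below the lowest control animal, and the difference of -0.36 ± 0.14 did not pass (limma adjusted p 0.375). At 14 days the hippocampal levels were 6.92, 7.68 and 8.34 in the CD33 ASO group and 7.33, 7.84 and 8.23 in the control ASO group, with a difference of -0.04 ± 0.17. On the cortical chips taken 1 at a time, with both durations, Lum was lower in the CD33 ASO group on 5 of 6, with a lowest difference of -0.592.

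Dcn encodes decorin, a related proteoglycan that also binds transforming growth factor beta. At 28 days its lowest, median and highest levels were 9.56, 10.06 and 10.63 in the frontal cortex of the CD33 ASO group and 10.02, 10.43 and 10.85 in that of the control ASO group. The CD33 ASO animals lay below the control median in 13 of 14 cases and below the lowest control animal in 6. The difference was -0.38 ± 0.10, 76.6% of the control level, and its limma adjusted p of 0.0571 lay just over the threshold of 0.05. It was below 0 on 6 of 6 cortical chips at 28 days (-0.645 to -0.209), and the call moved with single animals: without CD33 ASO replicate 4 or 10, or control ASO replicate 6 or 12, the adjusted p lay between 0.013 and 0.039. The other Dcn probe differed by -0.42 ± 0.11 in the same comparison.

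At 14 days in the frontal cortex Dcn had levels of 9.66, 10.19 and 10.44 in the CD33 ASO group and 9.88, 10.24 and 10.65 in the control ASO group. In the hippocampus at 28 days the levels were 11.37, 11.97 and 12.32 in the CD33 ASO group and 11.76, 12.11 and 12.60 in the control ASO group. At 14 days the hippocampal levels were 11.66, 11.98 and 12.25 in the CD33 ASO group and 11.46, 11.73 and 12.32 in the control ASO group. The CD33 ASO median was thus below the control median in 3 of the 4 comparisons and above it in the hippocampus at 14 days. None of these 3 differences passed: -0.12 ± 0.12 in the frontal cortex at 14 days, and -0.18 ± 0.09 at 28 days and 0.14 ± 0.11 at 14 days in the hippocampus.

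**Figure D1:**
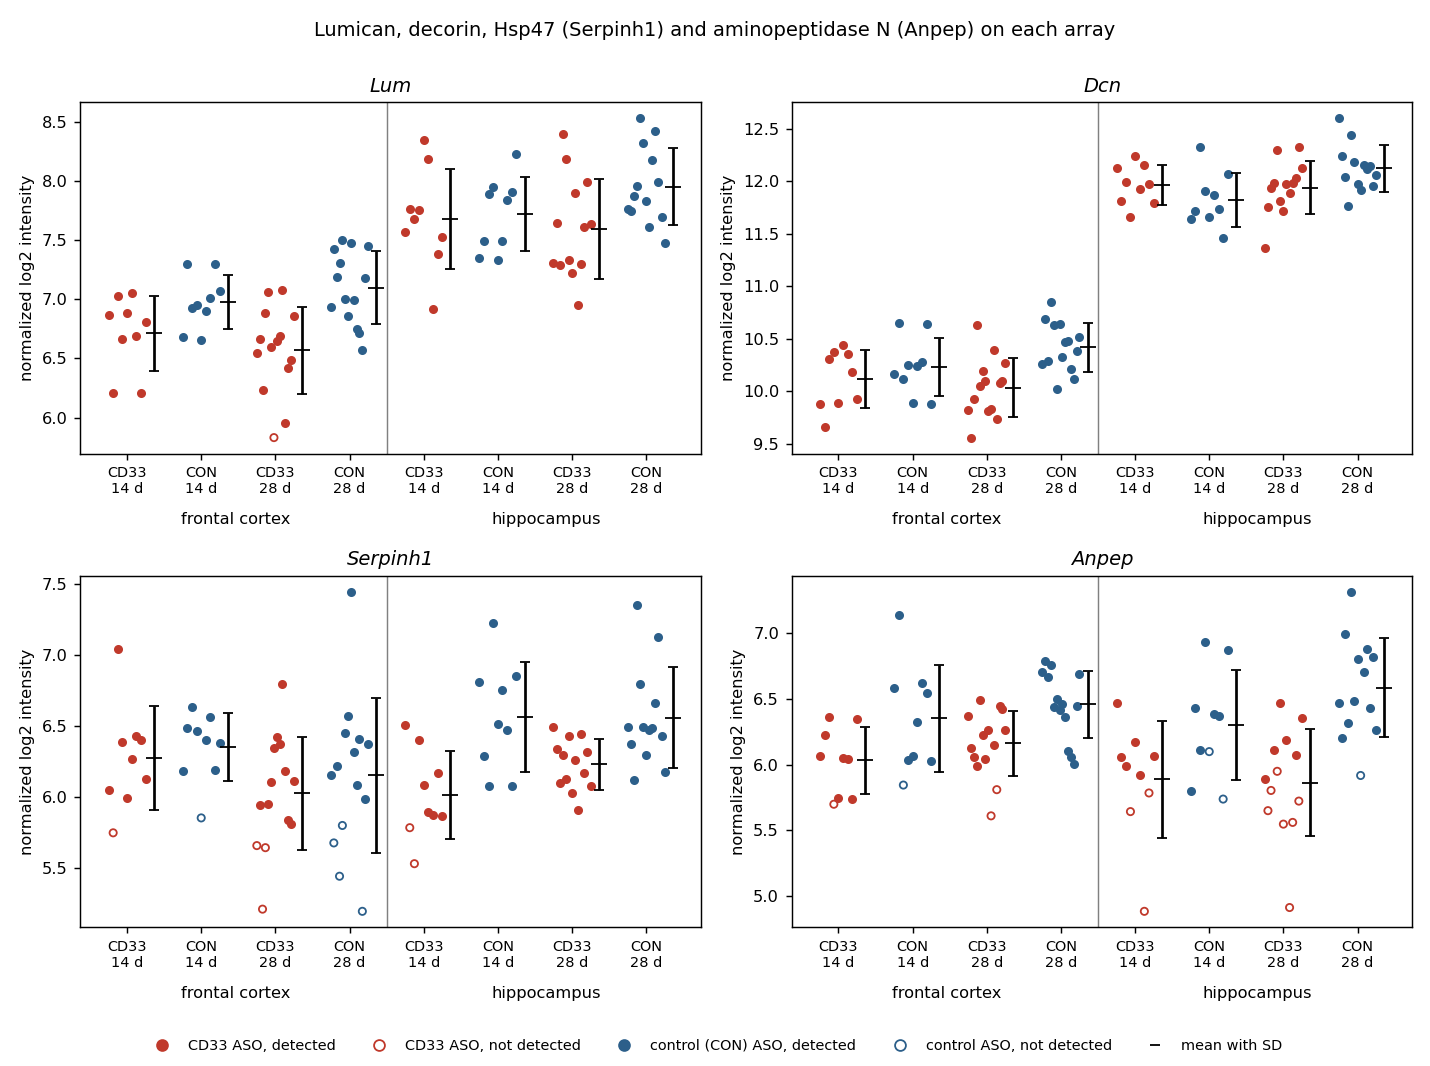
Normalized log2 intensity (vertical axis) of Lum, Dcn, Serpinh1 and Anpep on each array, with frontal cortex left and hippocampus right, CD33 ASO in red and control ASO in blue at 14 and 28 days; open points were not detected on that array and bars give the mean with SD. The groups overlap in each comparison, and in the frontal cortex at 28 days all 14 CD33 ASO animals lie below the control median of 7.09 for Lum.

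Type I collagen did not pass the test in any comparison of the ASOs. Col1a1 ranged from 5.39 to 6.41 (median 5.88) in the CD33 ASO group and from 4.91 to 6.64 (median 5.68) in the control ASO group in the frontal cortex at 28 days, a difference of 0.14 ± 0.17. In the hippocampus at 28 days it ranged from 5.17 to 6.80 (median 5.91) in the CD33 ASO group and from 4.88 to 7.09 (median 6.27) in the control ASO group, a difference of -0.23 ± 0.24. At 14 days Col1a1 differed by 0.02 ± 0.21 in the frontal cortex and by 0.10 ± 0.29 in the hippocampus. Control animals lay on both sides of the whole CD33 ASO range at 28 days in both tissues. Col1a2 lay within 4.59 to 6.68 over all arrays, and its differences of -0.25 ± 0.15 and -0.15 ± 0.19 in the frontal cortex and -0.07 ± 0.13 and -0.09 ± 0.16 in the hippocampus, at 28 and 14 days, compare values near background.

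Serpinh1 was lower in the hippocampus of the CD33 ASO animals when both durations were averaged. At 14 days its lowest, median and highest hippocampal levels were 5.53, 5.89 and 6.50 in the CD33 ASO group and 6.08, 6.51 and 7.23 in the control ASO group, and it was detected on 7 of 9 CD33 ASO arrays and 9 of 9 control ASO arrays. At 28 days they were 5.91, 6.26 and 6.49 in the CD33 ASO group and 6.12, 6.49 and 7.35 in the control ASO group, with detection on 13 of 13 arrays in each group. The CD33 ASO animals lay below the control median in 9 of 9 cases at 14 days and in 12 of 13 at 28 days, and the groups overlapped at both. The differences were -0.55 ± 0.14 at 14 days (unadjusted p 0.000349, limma adjusted p 0.293) and -0.33 ± 0.12 at 28 days (limma adjusted p 0.296), so neither passed alone.

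The average of both hippocampal differences for Serpinh1 was -0.44 ± 0.09, 73.72% of the control level, with a limma adjusted p of 0.0107. In this averaged comparison Serpinh1 and Anpep were the 2 of 8 members that passed, beside 0.678% of all genes (0.298% as lower and 0.38% as higher, or 29 and 37 genes, against 26 and 54 with median scaling). With both durations pooled on a chip, Serpinh1 was below 0 on 6 of 6 hippocampal chips, with differences from -0.657 to -0.004. At 28 days it was below 0 on 4 of 6, with differences from -0.708 to 0.087. In the frontal cortex it ranged from 5.75 to 7.04 in the CD33 ASO group and from 5.85 to 6.64 in the control ASO group at 14 days, with a difference of -0.08 ± 0.19. At 28 days it ranged from 5.21 to 6.80 in the CD33 ASO group and from 5.20 to 7.44 in the control ASO group, with a difference of -0.12 ± 0.15.

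Anpep was lower in the CD33 ASO group in the hippocampus at 28 days. Its lowest, median and highest levels were 4.91, 5.89 and 6.47 in the CD33 ASO group, against 5.92, 6.48 and 7.31 in the control ASO group. All 13 CD33 ASO animals lay below the control median and 7 lay below the lowest control animal, and the probe was detected on 6 of 13 CD33 ASO arrays and on 12 of 13 control ASO arrays. The difference was -0.72 ± 0.16, 60.65% of the control level (limma adjusted p 0.0151), and it was below 0 on 6 of 6 chips, from -1.244 to -0.227. Anpep was the 1 of 8 members that passed in this comparison, where 0.411% of all genes passed (0.246% as lower, with 24 genes lower and 16 higher, against 21 lower and 32 higher with median scaling of the arrays) and the groups did not overlap for 0.0103%. With the means of the choroid plexus and red blood cell marker lists as covariates the difference was -0.57 with an adjusted p of 0.21, so that the call was lost.

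At 14 days in the hippocampus Anpep had levels of 4.88, 5.99 and 6.47 in the CD33 ASO group and 5.74, 6.37 and 6.93 in the control ASO group, a difference of -0.42 ± 0.19 (limma adjusted p 0.81). Averaged over both durations Anpep was at 67.4% of the control level (-0.57 ± 0.12, limma adjusted p 0.0107). At 28 days the cortical levels were 5.61, 6.19 and 6.49 in the CD33 ASO group and 6.01, 6.45 and 6.79 in the control ASO group. There 13 of 14 CD33 ASO animals lay below the control median, and the difference of -0.30 ± 0.11 did not pass (limma adjusted p 0.331). At 14 days the cortical levels were 5.70, 6.05 and 6.36 in the CD33 ASO group and 5.84, 6.32 and 7.14 in the control ASO group, a difference of -0.32 ± 0.13 (limma adjusted p 0.922). The cortical average of -0.31 ± 0.09 had a limma adjusted p of 0.0831. With both durations pooled on a chip, Anpep was below 0 on 6 of 6 cortical chips, and at 28 days on 5 of 6.

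The genes of the contractile apparatus and of pericyte signalling did not pass in any comparison of the ASOs. Acta2, which encodes smooth muscle actin, had lowest, median and highest levels of 10.28, 11.26 and 12.11 in the CD33 ASO group and 10.58, 11.45 and 12.33 in the control ASO group in the hippocampus at 28 days. The ranges covered each other nearly in full, and the difference was -0.22 ± 0.20. In the hippocampus at 14 days Acta2 had 11.03, 11.47 and 11.76 in the CD33 ASO group and 10.59, 10.74 and 12.06 in the control ASO group, a difference of 0.33 ± 0.25. No CD33 ASO animal was below the control median there, while 2 control animals were above the highest CD33 ASO animal. The cortical differences of Acta2 were -0.08 ± 0.12 at 28 days and 0.15 ± 0.15 at 14 days, and the other 3 probes of Acta2 gave -0.11 to 0.01 and 0.09 to 0.29.

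Pdgfrb, the receptor through which pericytes respond to platelet-derived growth factor, lay in a narrow band. Its levels ran from 6.27 to 7.22 in the CD33 ASO group and from 6.41 to 7.06 in the control ASO group in the frontal cortex at 28 days (difference 0.02 ± 0.09). In the hippocampus at 28 days they ran from 6.43 to 7.06 in the CD33 ASO group and from 6.16 to 7.08 in the control ASO group (difference 0.02 ± 0.09). At 14 days the differences were -0.20 ± 0.11 in the frontal cortex and -0.07 ± 0.11 in the hippocampus. Each of these differences was smaller than the SD of Pdgfrb within either group compared (0.18 to 0.31 over the 8 groups).

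**Figure D2:**
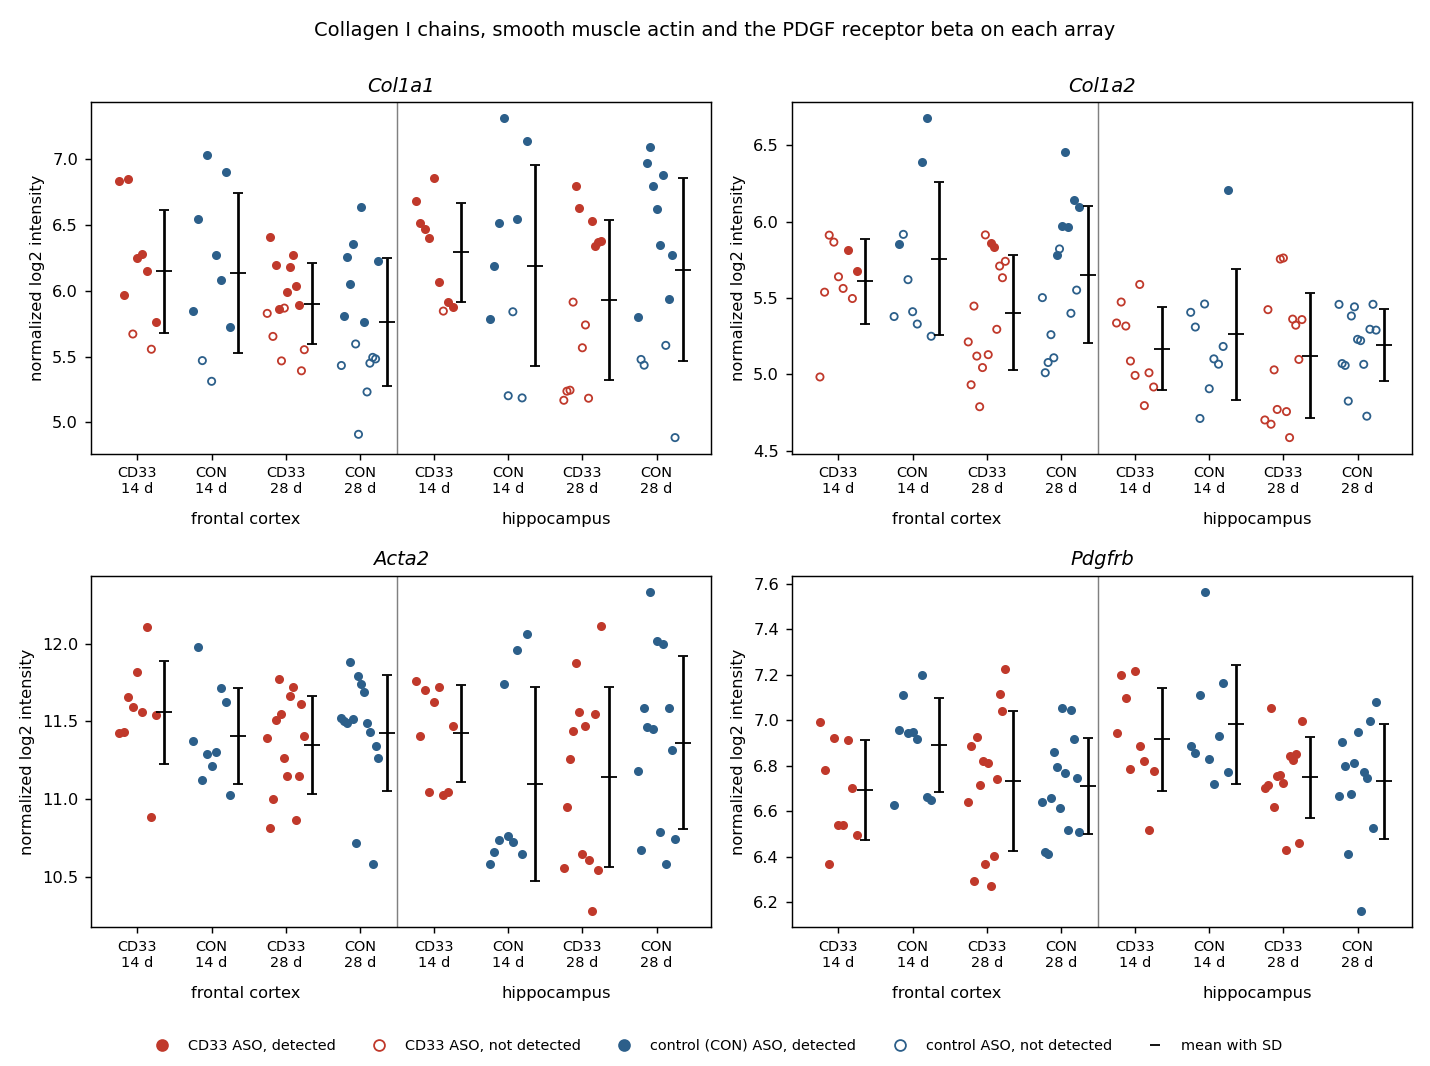
Normalized log2 intensity (vertical axis) of Col1a1, Col1a2, Acta2 and Pdgfrb on each array, drawn as for the other members: frontal cortex left, hippocampus right, CD33 ASO red, control ASO blue, open points not detected, bars for mean with SD. Col1a2 was detected on 13 of 46 cortical arrays and 1 of 44 hippocampal arrays, and for all 4 genes the ranges of the ASO groups overlap.

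Read over the 8 tested members together, the differences at 28 days lay mostly below 0. Cortical differences were below 0 for 6 and above 0 for 2, with a median of -0.1869, where 49.4% of all genes were below 0 with a median of 0.0015. Hippocampal differences were below 0 for 7 and above 0 for 1, with a median of -0.225, where 46.1% of all genes were below 0 with a median of 0.0074. The members at an unadjusted p under 0.05 were 3 of 8 in the frontal cortex and 4 of 8 in the hippocampus, beside 8.63% and 9.33% of all genes. These counts are no test of the members as a set. The members were chosen with earlier results of these data known, and some of them vary together from animal to animal.

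At 14 days 0 of 8 members passed limma's test in either tissue, where 0% of all genes passed in the frontal cortex and 0.0205% in the hippocampus. The targeted gene Cd33 was itself among the genes that did not pass in the frontal cortex. Cortical differences at 14 days were below 0 for 6 and above 0 for 2 (median -0.1342), and 1, Anpep, had an unadjusted p under 0.05, beside 5.05% of all genes. Hippocampal ones were below 0 for 5 and above 0 for 3 (median -0.0537), and 2, Serpinh1 and Anpep, had an unadjusted p under 0.05, beside 5.92% of all genes. The groups did not overlap for 0.0103% of all genes in the frontal cortex and 0.0308% in the hippocampus, and for none of the members.

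**Figure D3:**
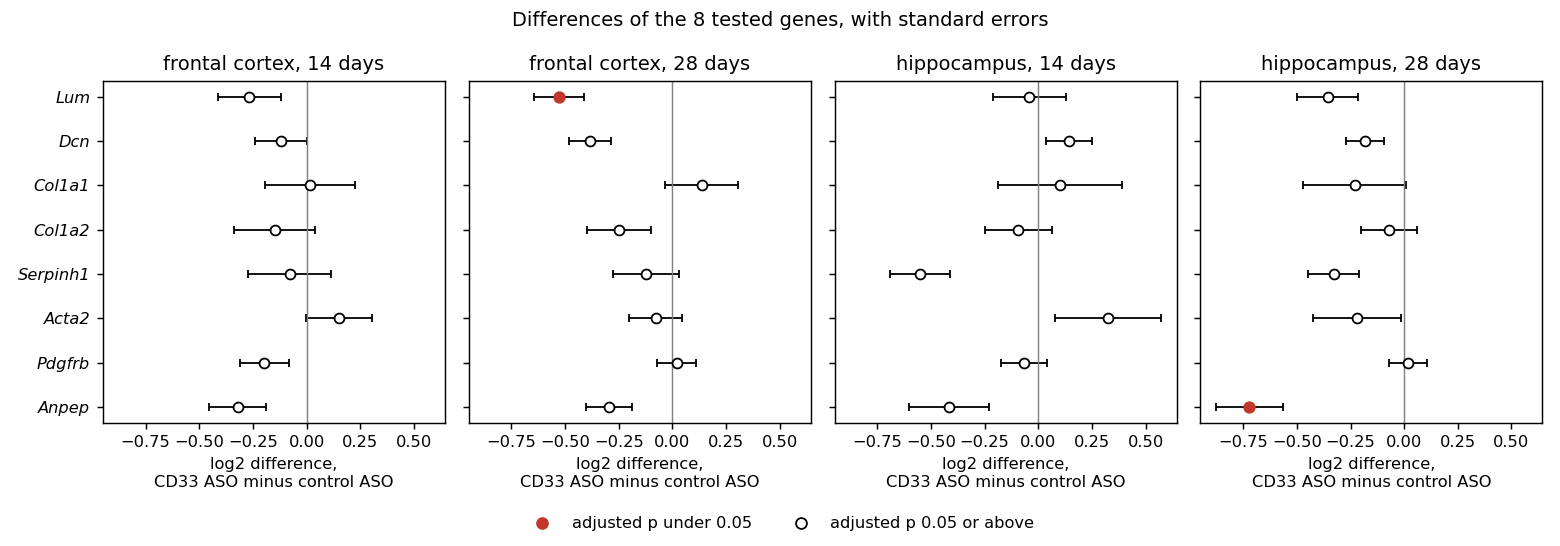
Log2 difference, CD33 ASO minus control ASO, with SE (horizontal axis) for the 8 tested members in the frontal cortex and the hippocampus at 14 and 28 days; filled red points passed limma's test at an adjusted p under 0.05. Lum in the frontal cortex at 28 days (-0.53) and Anpep in the hippocampus at 28 days (-0.72) are the filled points.

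Whether the ASO difference itself changed with the duration or with the tissue was tested directly, and 0 of 8 members passed in any of these 4 tests by limma. Likewise 0% of all genes passed in each, although 4.71% (duration, hippocampus), 2.68% (duration, frontal cortex), 5.09% (tissue, 28 days) and 4.7% (tissue, 14 days) had an unadjusted p under 0.05. Dcn had the smallest p of the members for duration in the hippocampus, where its difference at 28 days minus that at 14 days was -0.33 ± 0.14 (unadjusted p 0.0236, adjusted p 0.972). Anpep had the smallest for tissue at 28 days, with the cortical minus the hippocampal difference at 0.43 ± 0.18 (unadjusted p 0.0193, adjusted p 0.955). The members that passed in 1 tissue or at 1 duration are therefore not shown to respond differently in the other.

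Within each ASO, 28 days was also set against 14 days, and 0 of 8 members passed by limma. Of all genes, 0% passed with either ASO in the frontal cortex, and in the hippocampus 0.0308% passed with the CD33 ASO and 0.0205% with the control ASO. In the hippocampus of control ASO animals Dcn was at 12.12 ± 0.22 after 28 days and 11.82 ± 0.26 after 14 days (mean ± SD, n = 13 and 9), a difference of 0.30 ± 0.10 (unadjusted p 0.0038, adjusted p 0.252). Pdgfrb there was at 6.73 ± 0.25 after 28 days and 6.98 ± 0.26 after 14 days, a difference of -0.25 ± 0.10 (unadjusted p 0.0139, adjusted p 0.342). These were the 2 members with an unadjusted p under 0.05 among the 4 duration comparisons, beside 1060 of 9741 genes in that comparison. In the others 0 members had one. All genes gave 935 in the hippocampus with the CD33 ASO, and 505 (CD33 ASO) and 445 (control ASO) in the frontal cortex.

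The larger contrasts were between the tissues. Dcn was lower in the frontal cortex, at 10.07 against 11.95 in the hippocampus of CD33 ASO animals and at 10.33 against 11.97 in control ASO animals, so the cortical level was 27.21% and 31.98% of the hippocampal one (limma adjusted p 3.1e-41 and 3e-37). No cortical array reached the lowest hippocampal array, whose level was 11.37, since the highest cortical level was 10.85. Lum was lower too, at 6.64 against 7.64 with the CD33 ASO and 7.04 against 7.84 with the control ASO, which is 49.92% and 57.45% of the hippocampal level (adjusted p 1.4e-15 and 1.2e-11), and single arrays of the tissues overlapped. By group mean, Dcn in the frontal cortex ran from 10.04 (CD33 ASO, 28 days) through 10.11 (CD33 ASO, 14 days) and 10.23 (control ASO, 14 days) to 10.42 (control ASO, 28 days). The hippocampal order was 11.82 (control ASO, 14 days), 11.94 (CD33 ASO, 28 days), 11.96 (CD33 ASO, 14 days) and 12.12 (control ASO, 28 days), and neighbours in either order differed by less than their SDs of 0.19 to 0.28.

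Col1a2 passed the filter through its cortical arrays, so its difference between the tissues was set by the filter and is not counted. Of the other 7 tested members, 1 was higher and 2 lower in the frontal cortex with the CD33 ASO, and 0 were higher and 3 lower with the control ASO, where most genes passed. With the CD33 ASO 63.8% of all genes passed, 29.7% as higher and 34.1% as lower, and with the control ASO 65.3%, 30.7% as higher and 34.6% as lower. Serpinh1 differed by 0.02 ± 0.11 with the CD33 ASO (adjusted p 0.865) and by -0.31 ± 0.11 with the control ASO (adjusted p 0.00833). Anpep differed by 0.22 ± 0.10 with the CD33 ASO (adjusted p 0.0471) and by -0.04 ± 0.10 with the control ASO (adjusted p 0.748). With the CD33 ASO, Anpep was detected on 20 of 23 cortical and 12 of 22 hippocampal arrays. With hippocampal values raised to at least the lowest detected level of their array, its difference was 0.063. Whether these tissue differences depend on the ASO was tested above at each duration, where no member passed, and not for the average over both durations. Col1a2 was detected on 4 of 23 cortical and 0 of 22 hippocampal arrays with the CD33 ASO, and on 9 of 23 and 1 of 22 with the control ASO. Its means of 5.51 and 5.15 with the CD33 ASO and 5.71 and 5.23 with the control ASO give no fold above background. Acta2, Pdgfrb and Col1a1 did not pass. Choroid plexus markers were lower in the frontal cortex for 9 of 9 genes tested with either ASO (medians -1.975 and -2.2459). Folr1, Sostdc1, Kcne2, Otx2 and Cldn2 among them were detected on at most 2 cortical arrays and passed the filter through hippocampal arrays. Their direction was thus set by the filter, and the medians include them. Ttr and Kl, detected on 43 and 36 cortical arrays, differed by -6.41 ± 0.31 and -3.21 ± 0.21 with the CD33 ASO. The part of choroid plexus in the differences of Dcn and Lum was not tested. Chips held 1 tissue each, so chip and tissue cannot be told apart.

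Some pairs of members varied together from animal to animal. Each array's deviation from its group mean was correlated between members within a tissue, with 100000 permutations within groups and Benjamini-Hochberg adjustment over 56 pairs. In the hippocampus 6 of 28 pairs passed by Pearson r, each with a positive correlation. Above 0 were 26 of 28 (median 0.235, n = 44 arrays), where 49.7% of all pairs of tested genes were above 0 (median -0.001). The closest pair was Acta2 and Anpep, with r = 0.688 and rho = 0.709 (permutation p 1e-05 for each, the smallest these permutations can give, adjusted 0.00056), and r = 0.641 without the 2 arrays farthest from the median. Col1a1 with Acta2 had r = 0.616 and rho = 0.603 (permutation p 0.0001, adjusted 0.0018), and Lum with Anpep had r = 0.542 and rho = 0.511 (permutation p 0.00024, adjusted 0.0027). Without the 2 farthest arrays these were 0.579 and 0.476.

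Col1a1 with Anpep (r = 0.506), Lum with Acta2 (r = 0.505) and Lum with Col1a1 (r = 0.496) were the other hippocampal pairs that passed, with rho of 0.490, 0.513 and 0.510 and adjusted permutation p of 0.0038, 0.0038 and 0.0039. Without the 2 farthest arrays these 3 correlations were 0.457, 0.501 and 0.525. Lum, Col1a1, Acta2 and Anpep thus made up all 6 pairs that passed by Pearson r, and Dcn, Col1a2, Pdgfrb and Serpinh1 were in none. By rho, Dcn also passed with Col1a1 (0.421, adjusted permutation p 0.03) and with Lum (0.404, adjusted permutation p 0.039).

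Among cortical arrays 6 of 28 pairs passed by Pearson r, again each positive. Above 0 were 19 of 28 (median 0.205, n = 46 arrays), where 50.7% of all gene pairs were above 0 (median 0.004). Dcn with Acta2 had r = 0.593 and rho = 0.591 (permutation p 4e-05, adjusted 0.0011), and Lum with Col1a1 had r = 0.538 and rho = 0.588 (permutation p 0.00013, adjusted 0.0018). Lum with Acta2 (r = 0.507, rho = 0.477, adjusted 0.0038), with Dcn (r = 0.458, rho = 0.414, adjusted 0.012) and with Anpep (r = 0.417, rho = 0.416, adjusted 0.015) followed. The sixth pair, Acta2 with Anpep, had r = 0.416 (adjusted 0.021), and its rho of 0.354 had an adjusted permutation p of 0.074. Without the 2 farthest arrays these 6 correlations were 0.577, 0.624, 0.495, 0.483, 0.389 and 0.393 in the order given.

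Pdgfrb, Serpinh1 and Col1a2 were in none of the 12 pairs that passed by Pearson r. With deviations taken from group and chip means, 17 of 56 pairs passed, all 12 of these among them. The added hippocampal pairs were Col1a1 with Serpinh1 (r = 0.512, adjusted permutation p 0.0037), Dcn with Col1a1 (0.41, 0.032) and Col1a2 with Anpep (0.379, 0.042). In the frontal cortex they were Lum with Serpinh1 (0.377, 0.034) and Dcn with Anpep (0.41, 0.027). Pdgfrb remained in none. By rho of the deviations from group means, cortical Col1a2 with Serpinh1 passed too (0.416, adjusted permutation p 0.028). What the shared variation comes from was not tested. A member's deviation in 1 tissue was not shown to be related to its deviation in the other tissue of the same animal, over 43 animals. Pearson r ran from -0.232 for Serpinh1 to 0.279 for Dcn, 0 of 8 passed, and the adjusted permutation p lay between 0.53 and 0.85. For rho it lay between 0.33 and 0.98, with Serpinh1 at -0.309 (unadjusted permutation p 0.042).

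**Figure D4:**
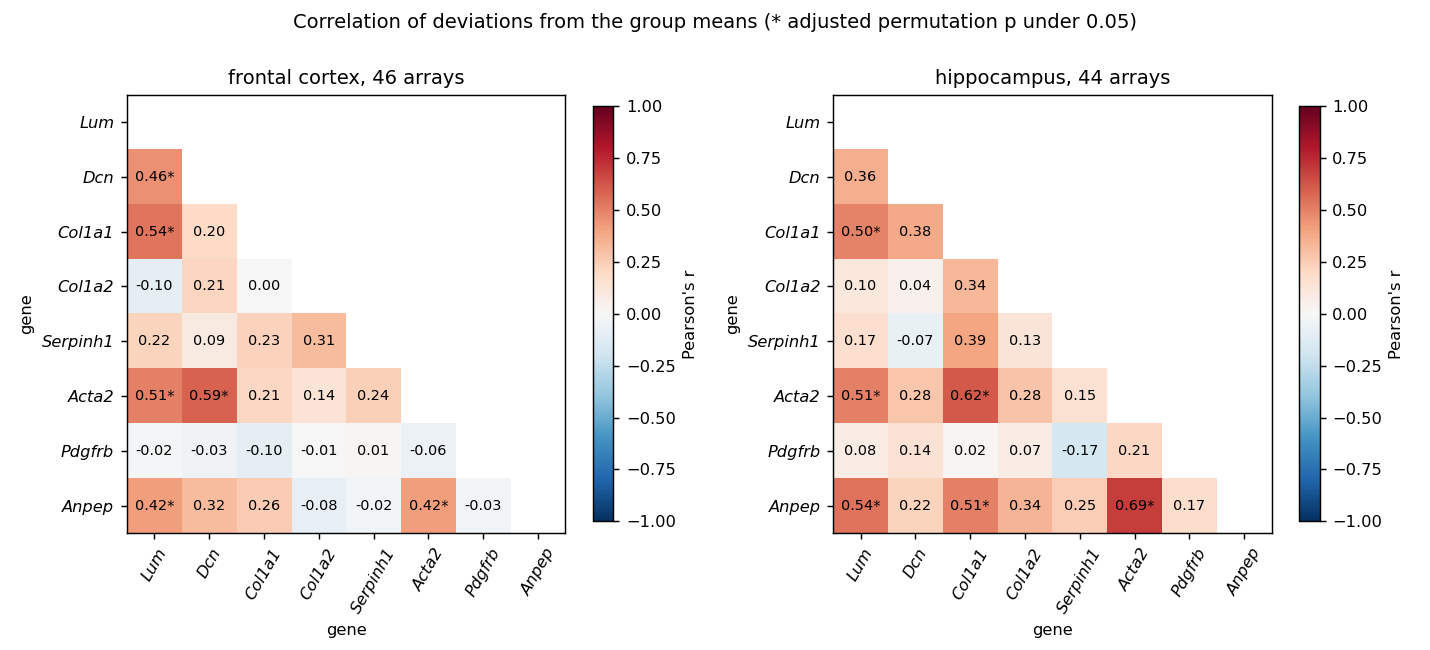
Pearson correlation of the members' deviations from their group means, between each pair of members (rows and columns), in the frontal cortex (left, 46 arrays) and the hippocampus (right, 44 arrays); colour gives r and a star an adjusted permutation p under 0.05. The closest pair is Acta2 with Anpep in the hippocampus at 0.688, and 6 pairs are starred in each tissue.

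For each member the 3 tested genes with the most similar deviations were looked up in each tissue, as a description over 44 hippocampal or 46 cortical arrays. Acta2 was closest to Mgp (r = 0.883), Mustn1 (0.878) and Aoc3 (0.873) in the hippocampus, and to Bgn (0.853), Myh11 (0.843) and Ogn (0.759) in the frontal cortex. Mgp encodes matrix Gla protein, which keeps vessel walls free of calcium deposits, Aoc3 an amine oxidase of smooth muscle and endothelium, and Myh11 the myosin heavy chain of smooth muscle. Bgn (biglycan) and Ogn (osteoglycin) are small leucine-rich proteoglycans like decorin and lumican. Anpep was closest to Mrvi1 (0.746), Lama1 (0.732) and Slc6a13 (0.732) in the hippocampus, and to Slc6a13 (0.657), Cd74 (0.647) and Slc22a6 (0.616) in the frontal cortex. Slc6a13, a transporter of GABA and taurine in the meninges, was on both lists.

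Lum was closest to Csrp2 (0.733), Pcolce (0.721) and H2-Ab1 (0.712) in the hippocampus, and to Aebp1 (0.666), Emp1 (0.654) and Gstm2 (0.64) in the frontal cortex. Pcolce encodes an enhancer of procollagen C-proteinase, and H2-Ab1 a chain of MHC class II. Dcn was closest to Timp2 (0.623), Arhgdib (0.585) and Lyz1 (0.565) in the hippocampus, and to Serping1 (0.71), Bgn (0.681) and Gpnmb (0.663) in the frontal cortex. Col1a1 was closest to S100a11 (0.779), Emp3 (0.773) and Angpt2 (0.769) in the hippocampus, and to Emp1 (0.588), Emp3 (0.583) and Lum (0.538) in the frontal cortex. The closest gene to Serpinh1 was Mmrn2 (0.517) in the hippocampus and Sec23ip (0.584) in the frontal cortex, and that to Pdgfrb was Trabd (0.636) and Zfp668 (0.552). For Col1a2, near background on most arrays, these were Nop14 (0.666) and Pcna (0.698).

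Other genes of the same cells were followed as fixed lists. Of 39 other fibroblast and meningeal genes 27 were tested, and 0 passed limma's test for the ASOs in either tissue at either duration. Of all 9741 genes, 40 and 2 passed in the hippocampus at 28 and 14 days, and 46 and 0 in the frontal cortex. A count of 0 is thus close to the share over all genes, here and for the lists that follow. In the hippocampus their differences lay below 0 for 25 of 27 at 28 days (median -0.1963) and above 0 for 25 of 27 at 14 days (median 0.1304). Cortical differences of 18 of 27 lay below 0 at 28 days (median -0.0368) and 12 of 27 at 14 days (median 0.0091). Of all genes, 46.1% and 48.5% were below 0 in the hippocampus at 28 and 14 days, and 49.4% and 50.6% in the frontal cortex. Slc6a13 had the smallest p at 28 days, with -0.66 ± 0.23 in the hippocampus (adjusted p 0.28) and -0.47 ± 0.12 in the frontal cortex (adjusted p 0.058). Serping1, which encodes the C1 inhibitor of complement, differed by -0.34 ± 0.11 in the frontal cortex at 28 days (adjusted p 0.23).

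Of 25 other pericyte and smooth muscle genes 15 were tested, and 0 passed for the ASOs in these 4 comparisons. At 28 days 14 of 15 lay below 0 in the hippocampus (median -0.1116) and 12 of 15 in the frontal cortex (median -0.0387). Beside these, 46.1% and 49.4% of all genes lay below 0. Rgs5, a G protein regulator of pericytes, differed by -0.26 ± 0.12 in the hippocampus at 28 days (adjusted p 0.48), and Myh11 by 0.47 ± 0.23 in the hippocampus at 14 days (adjusted p 0.84). Of 22 genes of collagen synthesis and processing 16 were tested and 0 passed, with medians between -0.0291 and 0.0303 in the 4 comparisons. Of 11 genes of serum response factor, myocardin and their targets 7 were tested and 0 passed, with medians between -0.0384 and 0.0162.

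Of 23 genes of transforming growth factor beta and platelet-derived growth factor signalling 19 were tested and 1 passed. Acvrl1, which encodes the endothelial receptor ALK1, was lower in the frontal cortex of the CD33 ASO group at 28 days, by -0.53 ± 0.12 (adjusted p 0.01). Its cortical minus hippocampal difference of -0.64 ± 0.15 did not pass (adjusted p 0.47). The list's medians lay between -0.0241 and -0.0081 in the 4 comparisons, close to those of all genes.

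**Figure D5:**
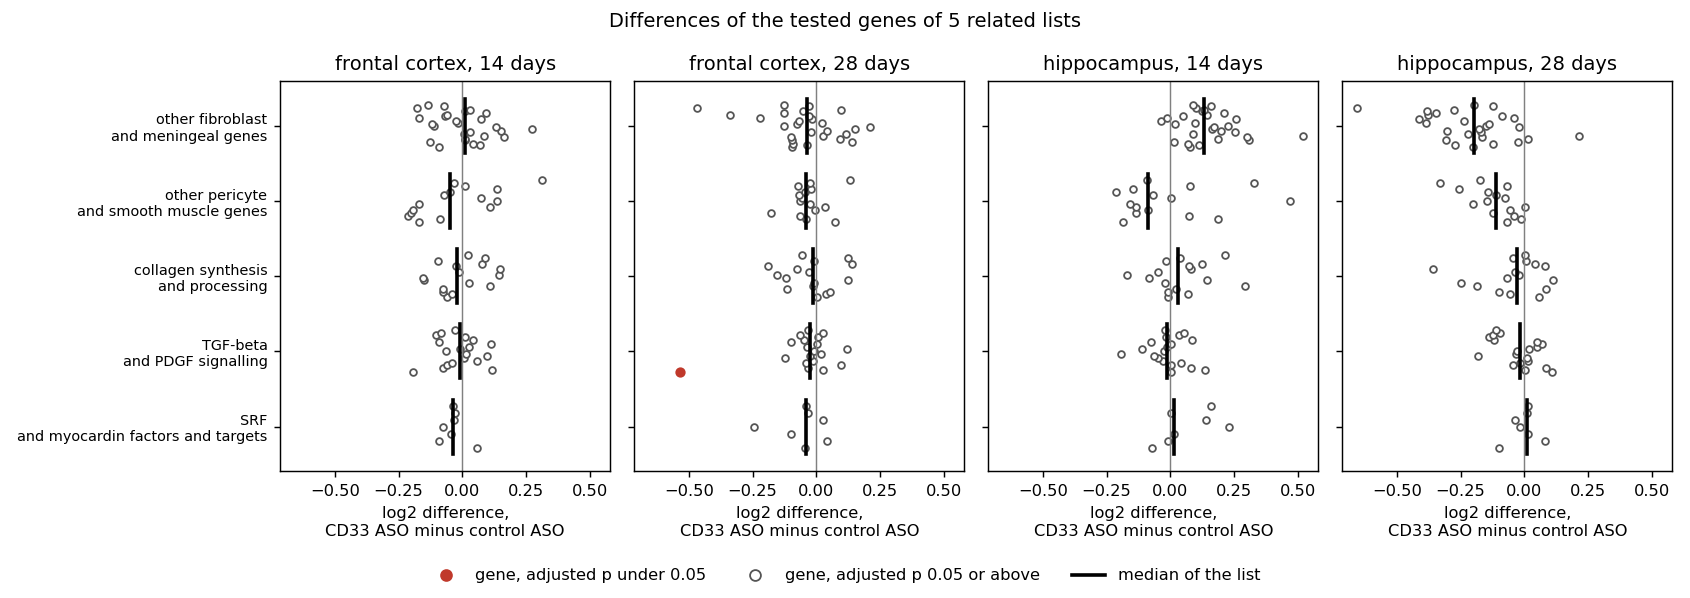
Log2 differences, CD33 ASO minus control ASO (horizontal axis), of the tested genes of 5 related gene lists (rows) in the frontal cortex and the hippocampus at 14 and 28 days; each point is a gene, filled where it passed, and the black bar is the list's median. Acvrl1 in the frontal cortex at 28 days is the filled point, and the fibroblast and meningeal list has medians of -0.1963 at 28 days and 0.1304 at 14 days in the hippocampus.

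Between the tissues, 63.8% of all genes passed with the CD33 ASO and 65.3% with the control ASO, and the counts of the lists are read against these shares. The fibroblast and meningeal list had 9 genes higher and 4 lower in the frontal cortex with the CD33 ASO, and 10 higher and 5 lower with the control ASO, of 27 tested, which is below the background with both ASOs. Slc47a1, a meningeal transporter of organic cations, was higher by 1.26 ± 0.16 and 1.12 ± 0.16, and Col6a1, a chain of type VI collagen, by 1.04 ± 0.10 and 1.09 ± 0.10, which is the opposite direction to Dcn and Lum. Of the pericyte and smooth muscle list 5 were higher and 2 lower with the CD33 ASO, and 7 higher and 4 lower with the control ASO, of 15 tested. Of the 16 tested genes of the collagen synthesis list 1 was higher and 11 lower with the CD33 ASO, and 1 higher and 9 lower with the control ASO: Lox, the cross-linking lysyl oxidase, was higher by 0.58 ± 0.11 and 0.59 ± 0.11, and Pcolce lower with -0.41 ± 0.12 and -0.58 ± 0.12. Of 19 tested, the signalling list had 12 higher and 3 lower, and 11 higher and 4 lower, with Tgfb2 at -1.82 ± 0.07 and -1.83 ± 0.07.

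Markers of other cell types that the pieces can hold moved in the same comparisons. Their counts in the hippocampus at 28 days stand beside 46.1% of all genes below 0 and 40 of 9741 passing. In the hippocampus at 28 days, choroid plexus markers were below 0 for 9 of 9 genes tested (median -0.6991, 0 passing limma's test). Their summed level ran from 11.34 to 15.60 in the CD33 ASO group and from 11.64 to 15.54 in the control ASO group. Red blood cell markers were below 0 for 3 of 3 (median -0.817, 0 passing), with summed levels of 12.66 to 14.60 in the CD33 ASO group and 13.42 to 14.96 in the control ASO group. Endothelial markers were below 0 for 8 of 10, of which 2 passed, Vwf (-0.92 ± 0.17, adjusted p 0.0021) and Ly6c1 (-0.28 ± 0.06, adjusted p 0.012), with summed levels of 12.71 to 13.06 in the CD33 ASO group and 12.95 to 13.48 in the control ASO group. Border macrophage markers were below 0 for 5 of 6, of which 4 passed, Fcna (-1.27 ± 0.19, adjusted p 0.00011) and Ms4a7 (-1.08 ± 0.21, adjusted p 0.0046) among them, with summed levels of 8.39 to 9.30 in the CD33 ASO group and 9.22 to 10.07 in the control ASO group.

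In the frontal cortex at 28 days red blood cell markers were below 0 for 3 of 3 (median -0.4356, 0 passing), with summed levels of 13.20 to 15.18 in the CD33 ASO group and 14.21 to 15.17 in the control ASO group. Endothelial markers were below 0 for 8 of 10, of which Vwf passed (-0.65 ± 0.09, adjusted p 7.3e-06), with summed levels of 13.00 to 13.29 in the CD33 ASO group and 13.11 to 13.55 in the control ASO group. Border macrophage markers were below 0 for 4 of 6, of which 2 passed, Fcna (-1.12 ± 0.14, adjusted p 4.7e-06) and Ms4a7 (-0.82 ± 0.14, adjusted p 6e-04), with summed levels of 8.70 to 9.62 in the CD33 ASO group and 9.33 to 9.90 in the control ASO group. Choroid plexus markers were below 0 for 6 of 9 (median -0.0308, 0 passing). These cortical counts stand beside 49.4% of all genes below 0 and 46 of 9741 passing. The defining markers Lyve1, Clec10a and Kdr were detected on 0 arrays in both tissues, and Cd163 on 2 cortical and 0 hippocampal arrays.

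With choroid plexus and red blood cell means as covariates, Lum in the frontal cortex at 28 days differed by -0.51 (adjusted p 0.04), and the hippocampal averages were -0.42 for Serpinh1 (adjusted p 0.019) and -0.54 for Anpep (adjusted p 0.016). In the hippocampal average of both durations Serpinh1 and Anpep passed, and some markers passed as lower besides Cd33. Of 10 endothelial markers tested only Vwf did (-0.68 ± 0.13, adjusted p 0.0036), and of 3 oligodendrocyte markers only Mog (-0.41 ± 0.10, adjusted p 0.024). Border macrophages had 4 of 6, with Ms4a7 at -0.99 ± 0.16 (adjusted p 5e-04) and Fcna at -0.91 ± 0.15 (adjusted p 0.00047). Of all 9741 genes, 29 passed as lower. Choroid plexus markers were below 0 for 9 of 9 in that hippocampal average (median -0.2967, 0 passing), beside 47.1% of all genes. In the cortical average, where Lum passed, Vwf (-0.52 ± 0.07, adjusted p 5e-06), Fcna (-0.87 ± 0.12, adjusted p 5e-06) and Ms4a7 (-0.67 ± 0.11, adjusted p 0.00044) passed as lower. Of all 9741 genes, 39 passed as lower in that average. The part of endothelial cells, border macrophages and oligodendrocytes in the differences of the members was not tested. At 14 days red blood cell markers lay above 0 for 3 of 3 in both tissues, with medians of 0.3374 in the frontal cortex and 0.3184 in the hippocampus. Of all genes, 50.6% and 48.5% lay below 0 in these comparisons. Hippocampal Ms4a7 at 14 days differed by -0.90 ± 0.25 (adjusted p 0.35), Fcna by -0.54 ± 0.23 (adjusted p 0.8) and Mog by -0.43 ± 0.15 (adjusted p 0.61), and none of them passed.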

How the data were processed

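The authors' deposited probe table gives, per array, a signal intensity that was background-subtracted but left unnormalized across arrays, and a detection p-value that compares the probe with negative controls. A second table deposited by the authors holds processed log2 values for 19542 probes, normalized within each tissue, with all 14 member probes in it, and was used as an alternative. Its column medians were 7.176 in hippocampus and 7.288 in cortex, and the step that made it is not given in the sources used here. BeadStudio, GenomeStudio and Partek are named per the submitters' processing notes, without versions. Median signal per array lay between 28.4 and 47.01.

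The neqc function of limma 3.58.1 was applied to the signals (R 4.3.3; offset 16, quantiles over 90 arrays, log2). The offset and the correction pull differences of dim probes toward 0. A probe was kept where its detection p-value was under 0.01 on at least 9 arrays. The brightest kept probe on average stood for its gene, which gave 9741 genes, so the other probes of Dcn and Acta2 are described beside the gene's value. Linear models were fitted by limma with moderated, 2-sided tests, and p-values were adjusted by Benjamini-Hochberg for 9741 genes, with a threshold of 0.05; adjusted p-values are limma's unless a permutation is named. Each tissue had 4 group means, and the tissues were compared in 1 model of 90 arrays in which animal was a random effect (consensus correlation 0.128). The number of arrays limits the precision. Probe names come from the platform annotation, and unnamed probes entered no gene test. The test was tried on simulated arrays in which known genes were changed.

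Correlations used Python 3.11.15, numpy 2.4.6, scipy 1.17.1 and pandas 2.3.3, and figures matplotlib 3.10.9. Each list, its members and the tests were chosen with earlier results of these data known. The genes named are all members, the 3 closest genes per member and tissue, and from each list up to 3 passing genes by size or the 2 of smallest p. Replicate numbers were checked for pairing and do not pair the animals. Alternatives covered background correction, offset, normalization, filter, probe choice, chip and replicate as blocks, array weights, single animals left out, the authors' processed values, and, added after the data were seen, marker lists as covariates. Of promoters, 5 members were looked up, and Lum, Dcn, Col1a1 and Tagln had no entry in the table used.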

Additional observations from a re-analysis of the deposited data

Results flagged for a closer look

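The 8 tested members in the 4 groups of 9 animals, all at 14 days, gave 32 sets of values, which were searched for an animal far from the others of its group. The search found 2, both for Col1a2. In the frontal cortex of the CD33 ASO 14-day group, replicate 1 had a log2 level of 4.982, while the other animals lay between 5.496 and 5.911, so its gap was 0.553 of the range. In the hippocampus of the control ASO 14-day group, replicate 9 had 6.21, while the others lay between 4.711 and 5.46, a gap of 0.5 of the range. Chance alone picks out about 1 in 20 such sets, and Col1a2 was near background on most arrays.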

How the results depend on the processing

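Of 800 values of single members under the alternatives, 779 kept their direction and side of the threshold, 8 passed newly, 5 no longer passed and 8 changed sign. Where members passing are counted, the hippocampus at 28 days had 0 with choroid plexus and red blood cell means as covariates, a choice made after the data were seen. With the replicate block the hippocampus at 14 days had 1 (Serpinh1, adjusted p 0.038) and the frontal cortex at 28 days 2, but only 3 of 9, 5 of 13, 5 of 9 and 11 of 14 same-numbered pairs correlated above 0.1, so the numbers are no pairing by design. The frontal cortex at 28 days also had 2, Dcn joining Lum, with median scaling, an offset of 50, the mean of probes or array weights, and 1 to 2 with single animals left out. The cortical average had 2, Anpep joining, with the chip as a block and with the covariates. Anpep between tissues with the CD33 ASO was lost with an offset of 50 (adjusted p 0.072), no filter (0.06), the animal as a fixed term (0.085) and without the animal with Cd33 in the control range (0.056). Signs turned for values near 0: Col1a2 (0.015) and Pdgfrb (-0.030; -0.0058 with array weights) in the hippocampus at 28 days and Col1a1 (-0.0031) in the frontal cortex at 14 days with the covariates, the hippocampal average of Dcn (0.0086 with covariates, 0.0042 with median scaling), Pdgfrb in the frontal cortex at 28 days without the animal (-0.0089), and Serpinh1 between tissues with the animal fixed (-0.025). With single animals left out, signs turned within -0.087 to 0.128 for Col1a1 and, at 28 days, -0.017 to 0.056 for Pdgfrb in the frontal cortex, and in the hippocampus within -0.024 to 0.242 for Col1a1, -0.162 to 0.026 for Col1a2, -0.124 to 0.054 for Lum and -0.104 to 0.0067 for Pdgfrb at 14 days and -0.030 to 0.047 for Pdgfrb at 28 days. The causes were not tested. Over the alternatives that keep all animals, or leave out the 1 animal with Cd33 in the control range, Anpep in the hippocampus at 28 days ranged from -0.743 to -0.491 (adjusted p 0.0096 to 0.21) and Lum in the frontal cortex at 28 days from -0.538 to -0.404 (0.0052 to 0.044). With each animal left out in turn these were -0.777 to -0.642 (0.0062 to 0.038) and -0.570 to -0.473 (0.0046 to 0.034).

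Over all genes, the hippocampus at 28 days had 40 calls, against 53 under median scaling, 62 with array weights and 15 with the covariates. Duration in the frontal cortex had 45 (CD33 ASO) and 11 (control ASO) with the replicate block, against 0 each, and in the hippocampus with the CD33 ASO 0 to 26 over the alternatives, against 3. Low signal limits Col1a1, Col1a2, Col3a1 and Tagln. The authors' processed values were not run between tissues, which were normalized apart.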
